A study of Mus musculus with 6 samples.

Results

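Nucleoporins, nuclear transport receptors and lamins were examined in mouse double-positive thymocytes of Kansl1fl/fl mice with and without CD4-Cre. The set held the protein-coding genes whose symbol starts with Nup and a number, Kpna, Kpnb, Xpo, Ipo or Tnpo. It also held Tpr, Ndc1, Pom121, Aaas, Seh1l, Sec13, Rae1, Ranbp2, Lmna, Lmnb1, Lmnb2, Lbr and Emd. These were 58 of 16455 protein-coding genes in a counts table of 29626 genes. RNA came from sorted CD4+CD8+ double-positive thymocytes of mice aged 8 weeks, 3 control mice with both Kansl1 alleles floxed (Kansl1fl/fl) and 3 mice with the same alleles plus CD4-Cre, called KANSL1-deficient here after their genotype label. The labels give the controls as littermates, and their genotype tag is WT although both groups carry the floxed alleles. Cre was carried only by the KANSL1-deficient mice, and effects of Cre itself and of losing Kansl1 cannot be told apart. CD4-Cre is a Cre transgene driven by Cd4 regulatory sequence and active from about the double-positive stage in T lineage cells. The labels number the mice and do not say whether any were pooled, so p-values measure the spread between these samples. Library totals lay between 19361968 and 22459830 counts.

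The nuclear pore complex is a ring-shaped channel through the nuclear envelope built from many copies of the nucleoporins. Scaffold nucleoporins of the Y complex and inner ring hold it in the membrane, and nucleoporins rich in phenylalanine-glycine repeats fill the channel. Importins and exportins carry cargo through it, and the small GTPase Ran sets the direction. Lamins form the meshwork under the inner nuclear membrane, and the envelope is taken apart and rebuilt at each mitosis. In the thymus, double-positive cells include cycling blasts and a larger pool of small resting cells.

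The labelled cell type was checked first. Cd4, Cd8a, Cd8b1 and Rag1 were each at 1787 CPM (counts scaled to a common library size with edgeR's TMM factors) or more in every library. The summed level of 8 macrophage and dendritic cell markers was 44.3 to 60.3 CPM in control and 71.1 to 77.1 CPM in KANSL1-deficient libraries. Adgre1 and Itgax stayed under 1 CPM in every library, and no marker of the list was at 0 throughout. Summed markers of double-negative cells were at 73.0 to 81.9 and 90.4 to 109 CPM, and those of single-positive T cells at 268 to 324 and 422 to 585 CPM. B cell markers summed to 42.3 to 61.1 and 40.3 to 55.7 CPM, thymic stroma markers to 142 to 208 and 195 to 240 CPM. Erythroid markers summed to 3.79 to 8.66 and 3.49 to 5.16 CPM, and those of gamma-delta T and NK cells to 0.339 to 1.94 and 0.0943 to 2.36 CPM. The 10 double-positive markers summed to 13392 to 13928 CPM in control and 15863 to 17537 CPM in KANSL1-deficient libraries. At the threshold given below, 3 of these 10 markers rose. So did 1 of 5 tested single-positive and 1 of 6 tested macrophage and dendritic cell markers, where 3.85% of all tested genes rose. No marker of any list fell. The targeted gene Kansl1 was read at 214, 189 and 230 CPM in control and 146, 168 and 188 CPM in KANSL1-deficient libraries (log2 fold change -0.33 ± 0.14, SE; edgeR quasi-likelihood test, adjusted p = 0.171). These are whole-gene counts, which include reads outside any deleted exon.

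Cell cycle genes moved with the groups in the same libraries. The 35 genes of a G2/M list summed to 875, 522 and 509 CPM in control replicates 1 to 3 and to 1903, 2094 and 2180 CPM in KANSL1-deficient replicates 1 to 3. The 35 genes of a G1/S list summed to 2259, 1862 and 1964 CPM and to 3421, 3682 and 3513 CPM. Of these lists, 33 of 35 and 20 of 34 tested genes rose and none fell, where 3.85% of all tested genes rose and 2.91% fell. The G2/M genes with the smallest p were Cenpa (log2 fold change 1.27), Nek2 (2.87), Nusap1 (2.48) and Kif2c (2.37), and the G1/S genes were Cdc6 (1.53), Ccne2 (1.48), E2f2 (1.02) and Mcm10 (2.39). Control replicate 1 was the highest control library for both lists. What part the cell cycle genes and the cell type markers above had in the results below was not tested. In bulk RNA a change in the number of cells of a type and a change in RNA per cell cannot be told apart.

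Few members differed between the genotypes, and those that did were spread over several roles. Nup62, a nucleoporin of the central channel, the importin alpha genes Kpna2 and Kpna3 and the lamin gene Lmnb1 rose in KANSL1-deficient cells. Nup35, a scaffold nucleoporin, and Ipo8, an importin of the beta family, fell. The threshold was a Benjamini-Hochberg adjusted p under 0.05 over all 15353 tested genes, from edgeR's quasi-likelihood test on the counts, and the other 49 of 55 tested members missed it. Of the 55 tested members 10.9% were called, against 6.76% of all tested genes and 10.2% of tested protein-coding genes with a mean of at least 5 CPM, a level that 54 of the 55 reached. The share called was therefore near that of genes of such abundance. By direction, 4 members rose (7.27%, against 3.85% of all tested genes) and 2 fell (3.64%, against 2.91%). Shares by direction were not computed for genes of like abundance. With library totals in place of TMM scaling, 2 rose and 4 fell. That choice moved the median log2 fold change of all tested genes from -0.02 to -0.17 and that of the members from 0.06 to -0.09. Shares of all tested genes that rose or fell with library totals are not given here. The 2 and 4 are therefore not a result about the members. Changes were modest: the largest log2 fold change, that of Kpna2, was just under 1, and 34 of the 55 were under 0.25 in size. The 3 KANSL1-deficient libraries lay all above or all below the controls for 20 tested members (9 above and 11 below), or 36.4%, against 28.5% of all tested genes. That share was not computed for genes of like abundance. The authors' deposited table lists 10 members with an adjusted p under 0.05, 7 higher and 3 lower. Of all genes with an adjusted p there, 14.9% were under 0.05. Its own column of significant genes marks 0 of the members. DESeq2 and limma-voom, run as alternatives, called 14.2% and 7.99% of the genes they tested. At an unadjusted p under 0.05 there were 15 of the 55 tested members, 9 positive and 6 negative, where 22.6% of all tested genes passed. The latter share was not computed for genes of like abundance either. The 10 members in the authors' deposited table are the 6 genes above with Ipo7, Lbr and Nup210 higher and Nup214 lower.

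**Figure D1:**
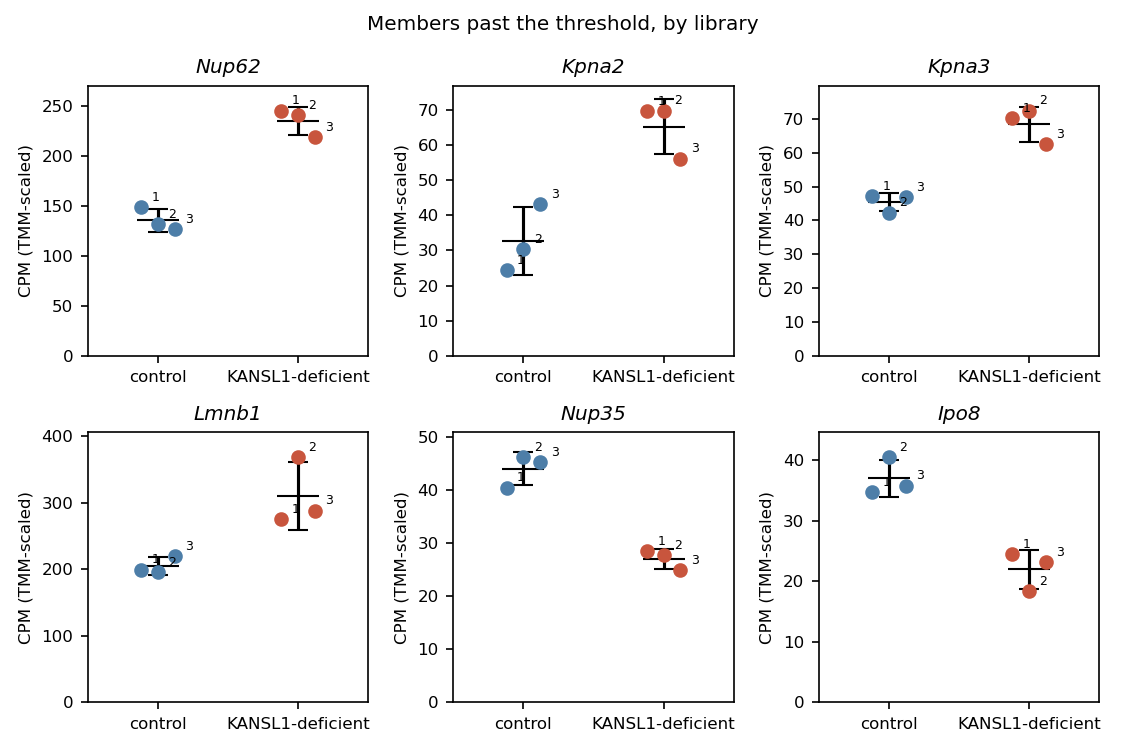
CPM (TMM-scaled, linear axis from 0) of the 6 members past the threshold in each library; points are libraries numbered by replicate, bars are mean ± SD (n = 3 each). Nup62, Kpna2, Kpna3 and Lmnb1 lie higher and Nup35 and Ipo8 lower in all 3 KANSL1-deficient libraries, with no overlap between the groups.

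**Figure D2:**
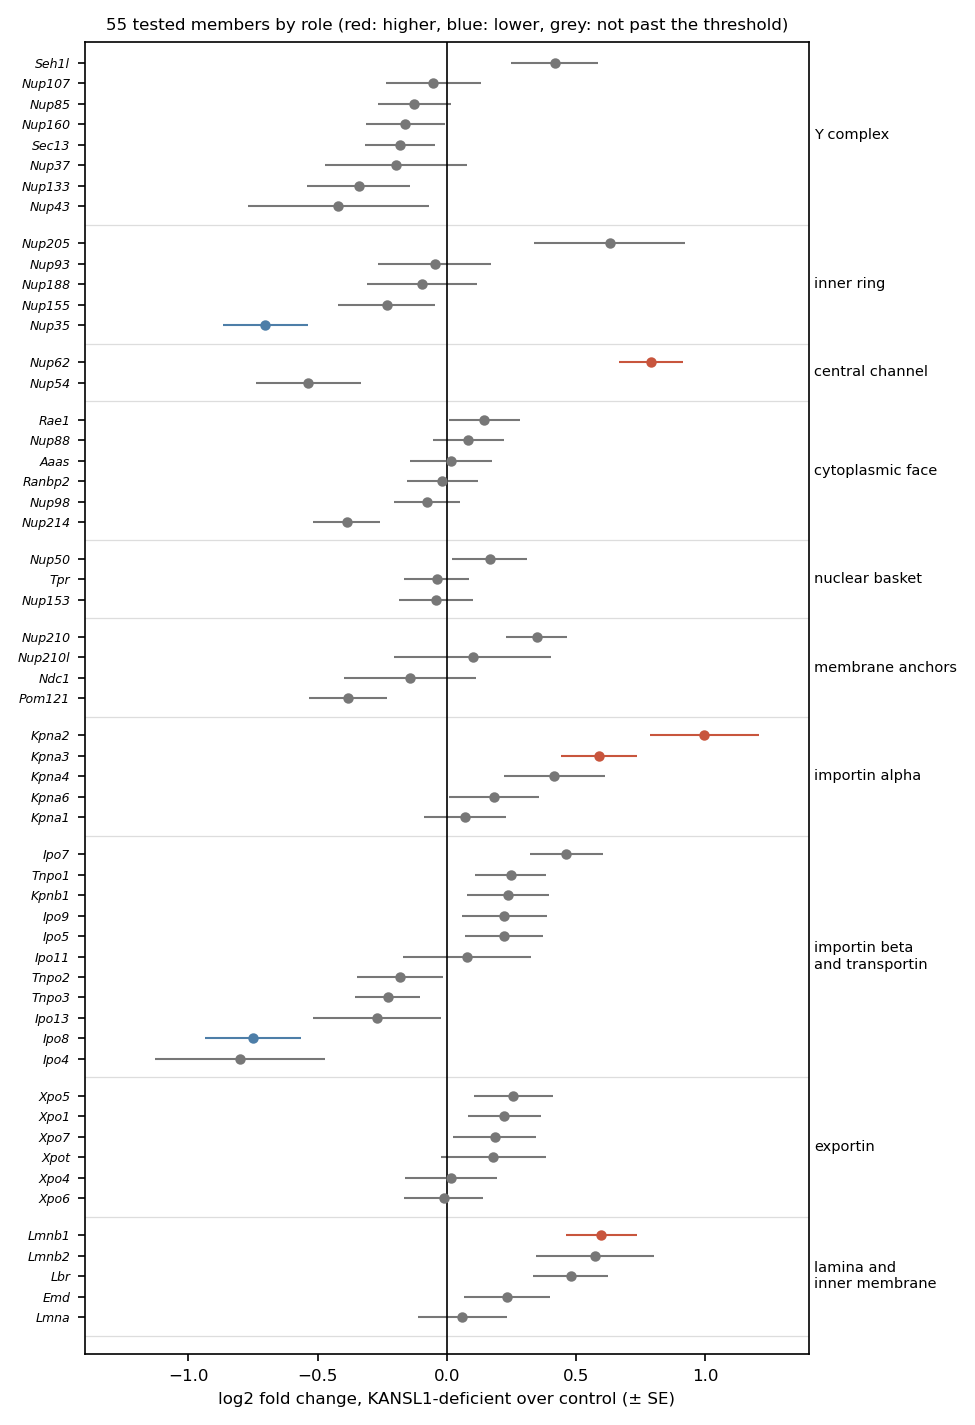
Log2 fold change ± SE (KANSL1-deficient over control) of the 55 tested members, grouped by role, with genes past the threshold in red (higher) or blue (lower). Values run from -0.80 (Ipo4, not past the threshold) to 1.00 (Kpna2), and all 5 importin alpha genes and all 5 lamina genes lie right of 0 on the TMM scale, while Kpna1 and Lmna lie left of it with library totals.

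Promoter sequences are shown for 3 of the 6 changed members, those with an entry in the RefSeq promoter table (build GRCm38.p6); 46 of the 58 members had one. Each is 100 bases long, 5′ to 3′ on the gene's strand, and runs from 100 to 1 bases before the RefSeq start for Nup62 and Ipo8 and from 116 to 17 before it for Kpna2, with capitals where a searched motif lies. They are given to place the CCAAT box and short motifs often found in promoters of cell cycle genes. So few windows allow no comparison of members that rose with members that fell, and a link of the motifs to the changes was not tested.
Nup62, chr7:44815988-44816087, plus strand: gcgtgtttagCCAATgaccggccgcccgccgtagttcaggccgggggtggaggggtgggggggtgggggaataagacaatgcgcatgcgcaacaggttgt
Kpna2, chr11:106999542-106999641, minus strand: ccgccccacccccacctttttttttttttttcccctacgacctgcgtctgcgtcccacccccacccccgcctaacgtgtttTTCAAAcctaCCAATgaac
Ipo8, chr6:148831468-148831567, minus strand: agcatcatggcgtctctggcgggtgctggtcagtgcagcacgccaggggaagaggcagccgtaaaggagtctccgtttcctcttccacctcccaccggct
Both strands of the 250 bases before each start were searched for the CCAAT box and for the element TTTGAA and its palindromic variant TTTAAA. The search also covered TTTGGCGC, TTTCCCGC and TTTGGCGG, longer motifs that are separate from that element. Kpna2 held CCAAT 25 to 21 bases before the RefSeq start and, 35 to 30 bases before it, TTCAAA, which is TTTGAA on the other strand. Another annotation, GENCODE, has a Kpna2 transcript that starts just after the printed window, so both motifs lie nearer to that start. Nup62 held CCAAT 90 to 86 bases before the start and once more 242 to 238 bases before it, on the other strand. In Ipo8 no searched motif was found. Over all 32851 windows, 33.8% held CCAAT, 16.0% TTTGAA and 12.1% TTTAAA. The same shares of the 55 windows of members were 45.5%, 23.6% and 9.09%. The remaining 3 motifs were each in fewer than 1% of all windows: TTTGGCGC in 0.417%, TTTCCCGC in 0.895% and TTTGGCGG in 0.444%. They were in 0, 1 and 1 windows of members. The motifs do not overlap one another in the windows printed, and a match is a description of the sequence, not a binding site.

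Nup62 encodes a repeat nucleoporin that binds transport receptors in the centre of the pore (ENSMUSG00000109511, GRCm39 chromosome 7, 44465512 to 44480236, plus strand). It was read at 149, 132 and 127 CPM in control and at 246, 241 and 219 CPM in KANSL1-deficient libraries. The lowest KANSL1-deficient library stood well above the highest control. Means were 136 ± 11.6 and 235 ± 14.2 CPM (SD, n = 3 each), a log2 fold change of 0.79 ± 0.12 (SE; edgeR, adjusted p = 0.00566). Nup62 was the member with the smallest p. It also passed the threshold under each of the 16 alternatives run, with adjusted p between 4.63e-07 and 0.0343. Its locus overlaps those of Il4i1 on the same strand and Atf5 on the other, which were read 44 to 93 and 16 to 24 times per library, so reads in shared parts cannot be assigned with certainty. Nup54, its partner in the channel, was named after its values were seen. It had 28.7, 35.7 and 30.3 CPM in control and 22.9, 25.3 and 17.1 CPM in KANSL1-deficient libraries. These values do not overlap and lie in the opposite direction from Nup62, but the log2 fold change of -0.54 ± 0.20 did not pass (edgeR, adjusted p = 0.138). Nup58, the remaining partner, had 1 read over all 6 libraries and was not tested. Its locus overlaps that of Gm49336 on the same strand, which had 916 to 1385 reads per library. Nup62cl, a relative of Nup62, had 6 reads in all and was not tested.

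In the scaffold, Nup35, which links the inner ring to the membrane, fell (ENSMUSG00000026999, chromosome 2, 80447580 to 80489250, plus strand). It was read at 40.4, 46.2 and 45.3 CPM in control and at 28.5, 27.7 and 24.9 CPM in KANSL1-deficient libraries. Every KANSL1-deficient library was below every control. Means were 44.0 ± 3.08 and 27.0 ± 1.86 CPM (SD, n = 3 each), and Nup35 fell by 0.70 on the log2 scale (SE 0.17; edgeR, adjusted p = 0.0278). With 1 library left out the call held only without control replicate 1 and was otherwise lost (adjusted p = 0.0626 to 0.0983). Dusp19 lies across the same locus on the same strand and had 11 to 51 reads per library. The other 4 inner ring genes, Nup93, Nup155, Nup188 and Nup205, did not pass. Nup205, a large inner ring scaffold protein named after its values were seen, had a log2 fold change of 0.63 ± 0.29 (edgeR, adjusted p = 0.228). It was read at 25.0, 18.6 and 18.2 CPM in control and 20.7, 25.9 and 49.0 CPM in KANSL1-deficient libraries, so that replicate 3 alone stood apart.

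None of the 8 Y complex genes, which form the outer rings of the pore, passed the threshold with edgeR, and 1 had an unadjusted p under 0.05. Their median log2 fold change was -0.17, and 7 of the 8 were negative. Sec13, which also coats vesicles of the secretory pathway, was the most abundant per length, at a mean of 75.7 FPKM (60.5 to 90.0 over the 6 libraries). It was read at 225, 271 and 272 CPM in control and 224, 253 and 199 CPM in KANSL1-deficient libraries, which overlap (log2 fold change -0.18 ± 0.14). Seh1l, which serves in the Y complex and in a regulator of mTORC1, had the smallest p of the group. Its values were 44.9, 59.5 and 61.0 CPM in control and 75.9, 81.8 and 63.2 CPM in KANSL1-deficient libraries. The groups did not overlap, and the log2 fold change of 0.42 ± 0.17 did not pass (edgeR, adjusted p = 0.163).

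At the cytoplasmic face, where messenger RNA leaves the pore, 0 of 6 tested genes passed with edgeR, and 1 had an unadjusted p under 0.05. That gene was Nup214, which binds the export receptor CRM1. It was read at 154, 134 and 141 CPM in control and at 112, 99.0 and 117 CPM in KANSL1-deficient libraries. The groups did not overlap, and the log2 fold change was -0.39 ± 0.13 (edgeR, adjusted p = 0.0944; DESeq2, adjusted p = 0.0467). With library totals it passed with edgeR as well. Nupl2, a pore gene of this face that RefSeq also lists as Nup42 and whose symbol lies outside the set, had 17.9, 18.2 and 31.9 CPM in control and 6.99, 11.9 and 13.7 CPM in KANSL1-deficient libraries (log2 fold change -1.06 ± 0.31; edgeR, adjusted p = 0.0578). Rae1, a messenger RNA export factor that also acts at the spindle, was the most abundant per length of this face (60.1 FPKM, 53.4 to 67.8). Its CPM values were 128, 147 and 164 in control and 153, 179 and 153 in KANSL1-deficient libraries, with overlap; its log2 fold change of 0.15 ± 0.14 was -0.0041 with library totals. The 3 genes of the nuclear basket, Nup153, Tpr and Nup50, had log2 fold changes between -0.04 and 0.17, and 0 had an unadjusted p under 0.05. Nup50, which helps importin alpha release its cargo, was read at 151, 218 and 195 CPM in control and at 223, 212 and 198 CPM in KANSL1-deficient libraries. The spread among the controls was wider than the difference between the groups.

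Among the 4 membrane anchors none passed with edgeR on the TMM scale, and 2 had an unadjusted p under 0.05. Nup210, a pore membrane glycoprotein, was read at 201, 185 and 198 CPM in control and at 262, 230 and 251 CPM in KANSL1-deficient libraries. There was no overlap, and the log2 fold change was 0.35 ± 0.12 (edgeR, adjusted p = 0.0962; DESeq2, adjusted p = 0.0496). The other such gene was Pom121, with a log2 fold change of -0.38 ± 0.15 (edgeR, adjusted p = 0.149, and 0.0442 with library totals), named after its values were seen. Median log2 fold changes of the pore groups were -0.17 for the Y complex, -0.10 for the inner ring, 0.13 for the 2 tested channel genes, -0.00078 for the cytoplasmic face, -0.04 for the basket and -0.02 for the anchors. With library totals the channel median was -0.02 and the other 5 were also negative.

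The importin alpha family recognises nuclear localisation signals and hands its cargo to importin beta. Of its 6 genes, 5 were tested and 2 rose. Kpna2, the form best known from proliferating cells (ENSMUSG00000018362, GRCm39 chromosome 11, 106879455 to 106890367, minus strand), was read at 24.4, 30.4 and 43.1 CPM in control libraries. In KANSL1-deficient libraries it was read at 69.6, 69.8 and 56.1 CPM. Every KANSL1-deficient library exceeded the controls. Control replicate 1, the control library with the most G2/M RNA, had the most Nup62 of the controls but the least Kpna2. Means were 32.7 ± 9.56 and 65.2 ± 7.83 CPM (SD, n = 3 each), and the log2 fold change was 1.00 ± 0.21 (edgeR, adjusted p = 0.0182). The call was lost without control replicate 2, KANSL1-deficient replicate 1 or KANSL1-deficient replicate 2, with adjusted p of 0.0796 to 0.0830.

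Kpna3 (ENSMUSG00000021929, chromosome 14, 61602660 to 61677323, minus strand) was read at 47.1, 42.3 and 46.9 CPM in control and at 70.1, 72.4 and 62.6 CPM in KANSL1-deficient libraries. The groups lay well apart, with a log2 fold change of 0.59 ± 0.15 (edgeR, adjusted p = 0.0341). With any 1 library left out it did not pass (adjusted p = 0.0533 to 0.141), nor with library totals. Kpna1 (log2 fold change 0.07, and -0.08 with library totals), Kpna4 (0.42) and Kpna6 (0.18) missed the threshold. The median over the 5 tested genes was 0.42, and 0.26 with library totals. Kpna7, known from oocytes and early embryos, had 8 reads, all in control replicate 2, and was not tested.

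Of 11 genes of importin beta and its relatives, 1 fell and none rose. Ipo8, an importin that also has been linked to small RNA pathways (ENSMUSG00000040029, chromosome 6, 148672181 to 148732965, minus strand), was read at 34.8, 40.5 and 35.8 CPM in control and at 24.5, 18.3 and 23.1 CPM in KANSL1-deficient libraries. All KANSL1-deficient values were below the controls. Means were 37.0 ± 3.07 and 22.0 ± 3.25 CPM (SD, n = 3 each), and Ipo8 fell by 0.75 on the log2 scale (SE 0.19; edgeR, adjusted p = 0.0334). With 1 library left out it passed only without control replicate 1 (otherwise adjusted p = 0.0633 to 0.145). 2610017A05Rik, which had 0 to 55 reads per library, overlaps it on the other strand. Ipo7, its close relative, went the other way without passing. It was named after its values were seen and was read at 58.8, 66.1 and 67.5 CPM in control and at 96.9, 87.4 and 80.7 CPM in KANSL1-deficient libraries. These do not overlap, and the log2 fold change was 0.46 ± 0.14 (edgeR, adjusted p = 0.0683; DESeq2, adjusted p = 0.0239). Ipo9, which carries histones H2A and H2B, was the most abundant of the group per length (14.9 FPKM, 11.9 to 17.3). It was read at 119, 94.8 and 127 CPM in control and at 140, 151 and 106 CPM in KANSL1-deficient libraries, with overlap. Kpnb1, importin beta itself, had a log2 fold change of 0.24 ± 0.16 (edgeR, adjusted p = 0.420). Ipo4, which imports histones and ribosomal proteins, had the lowest log2 fold change of all members, -0.80 ± 0.33, and did not pass (edgeR, adjusted p = 0.169). It was also the tested member with the lowest level per length, at 1.22 FPKM (0.706 to 1.81), and was named after its values were seen. The median over the 11 genes was 0.08, and -0.08 with library totals.

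None of the 6 exportins passed with edgeR, and 0 had an unadjusted p under 0.05. Their log2 fold changes lay between -0.01 and 0.26, with a median of 0.18 (0.03 with library totals). Xpo1, the general exportin CRM1, was read at 88.6, 104 and 89.6 CPM in control and at 99.6, 125 and 104 CPM in KANSL1-deficient libraries. The lowest KANSL1-deficient library lay inside the control range. Xpo5, which exports microRNA precursors, was read at 58.8, 69.5 and 65.2 CPM in control and at 83.5, 83.1 and 64.7 CPM in KANSL1-deficient libraries, where replicate 3 sat among the controls.

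Of the genes of the lamina and inner nuclear membrane, Lbr and Lmnb1 were the most abundant of all members per length. Lbr, the lamin B receptor that tethers heterochromatin and also makes sterols, had 127 FPKM (90.0 to 156 over the 6 libraries), and Lmnb1 had 86.2 FPKM (68.4 to 118). Lmna and Lmnb2 were lower, at 13.8 and 4.60 FPKM. Of the 5 genes, 1 rose and none fell. Lmnb1, which encodes lamin B1 (ENSMUSG00000024590, chromosome 18, 56840885 to 56886496, plus strand), was read at 199, 196 and 220 CPM in control and at 275, 369 and 288 CPM in KANSL1-deficient libraries. KANSL1-deficient replicate 2 was highest, and the groups did not overlap. Means were 205 ± 13.1 and 311 ± 50.8 CPM (SD, n = 3 each), and the log2 fold change was 0.60 ± 0.14 (edgeR, adjusted p = 0.0253). The call was lost without control replicate 1 or 2 or KANSL1-deficient replicate 1 or 2 (adjusted p = 0.0532 to 0.124), and also with library totals.

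Lbr was read at 511, 415 and 607 CPM in control and at 706, 785 and 646 CPM in KANSL1-deficient libraries. The controls were spread widely, yet none reached the lowest KANSL1-deficient library. Its log2 fold change of 0.48 ± 0.15 did not pass with edgeR (adjusted p = 0.0694) and passed with DESeq2 (adjusted p = 0.0239) and limma-voom (adjusted p = 0.0445). It also passed with edgeR with no filter on low counts (adjusted p = 0.0166), with a filter of 5 CPM in 3 libraries (adjusted p = 0.0362) and without control replicate 3 (adjusted p = 0.0424). Lmnb2, which encodes lamin B2, had 16.0, 12.6 and 19.4 CPM in control and 22.0, 28.6 and 20.8 CPM in KANSL1-deficient libraries. They did not overlap, and the log2 fold change of 0.57 ± 0.23 did not pass (edgeR, adjusted p = 0.158). Emd, which encodes the inner membrane protein emerin, was at 0.23. For Lmna, the A-type lamin gene, the log2 fold change was 0.06 ± 0.17, and -0.09 with library totals. The median over the 5 genes was 0.48, and 0.33 with library totals.

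**Figure D3:**
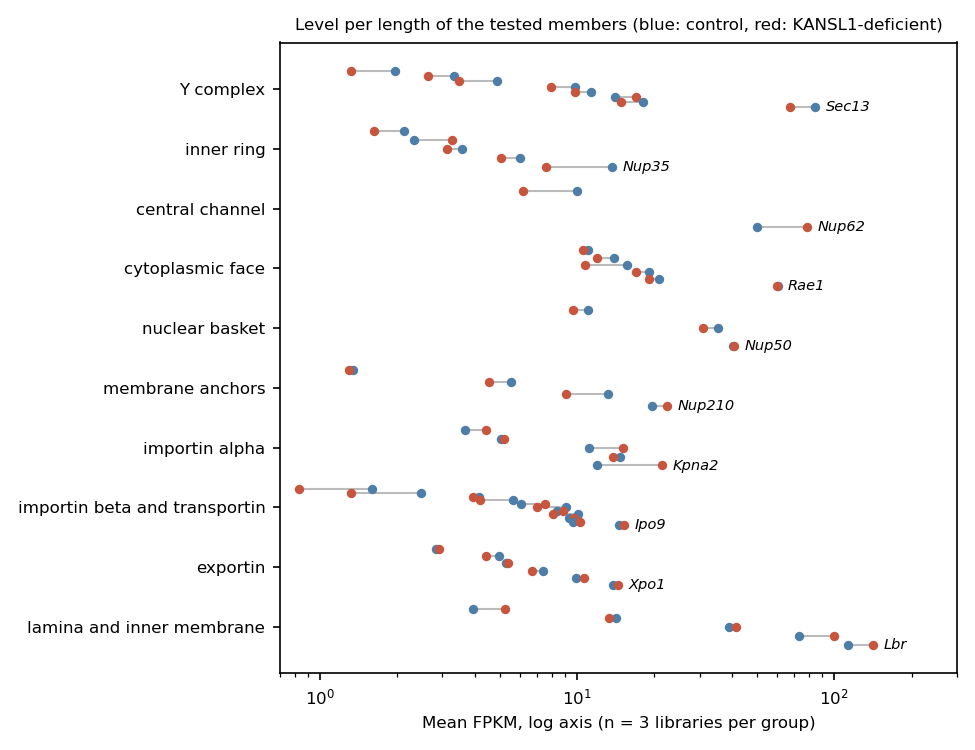
Mean FPKM of each tested member (log axis; blue control, red KANSL1-deficient, n = 3 libraries each, a line joining the same gene), by role, with the most abundant gene of each role named. FPKM is set per library total, so values carry no TMM scaling; Lbr (127 FPKM), Lmnb1 (86.2), Sec13 (75.7), Nup62 (64.2) and Rae1 (60.1) lead.

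Ratios within a library do not depend on the scaling between libraries, and 4 were computed from FPKM. The log2 ratio of Lmnb1 over Lmna was 2.63, 2.25 and 2.24 in control and 2.61, 3.02 and 3.05 in KANSL1-deficient libraries. The highest control exceeded the lowest KANSL1-deficient value, and the difference of 0.52 had an exact two-sided permutation p = 0.2 (0.4 adjusted over the 4 ratios). Lmnb1 over Lmnb2 differed by 0.01 (exact permutation p = 1.0, adjusted 1.0), with 4.18, 4.49 and 4.04 in control and 4.17, 4.22 and 4.33 in KANSL1-deficient libraries, which overlap. The log2 ratio of Kpna2 over the sum of the other Kpna genes was -1.999, -1.53 and -1.18 in control and -0.83, -0.75 and -0.96 in KANSL1-deficient libraries. These did not overlap, and the difference was 0.72 (exact permutation p = 0.1, the smallest that 3 against 3 libraries allow, adjusted 0.4). Xpo1 over Kpnb1 differed by -0.03 (exact permutation p = 0.9, adjusted 1.0).

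Other genes of nuclear transport and the envelope were read from lists outside the set. Beside their counts, 3.85% of all tested genes rose and 2.91% fell. Of tested protein-coding genes with a mean of at least 5 CPM, 10.2% were called in either direction. The shares of the export and envelope lists below did not exceed the latter. In the Ran cycle list, 2 of 7 tested genes rose and none fell. Rcc1, the nucleotide exchange factor that loads Ran with GTP on chromatin, was read at 17.5, 15.2 and 16.4 CPM in control and at 25.2, 45.0 and 38.6 CPM in KANSL1-deficient libraries (log2 fold change 1.15 ± 0.23; edgeR, adjusted p = 0.0143). Every KANSL1-deficient library was above the controls, with replicate 1 nearest to them. Cse1l, which returns importin alpha to the cytoplasm, was read at 67.0, 65.4 and 67.2 CPM in control and at 94.7, 94.7 and 88.7 CPM in KANSL1-deficient libraries. The libraries of each group were close together, and the log2 fold change was 0.48 ± 0.13 (edgeR, adjusted p = 0.0467). The median of the list was 0.35.

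Of 24 messenger RNA export genes, 2 fell and none rose. The median of their log2 fold changes was 0.02. Ddx19b, a helicase that strips export factors at the pore, was read at 50.9, 63.9 and 64.6 CPM in control and at 19.0, 31.4 and 21.0 CPM in KANSL1-deficient libraries. The groups were far apart, and Ddx19b fell by 1.33 on the log2 scale (SE 0.21; edgeR, adjusted p = 0.00613). Thoc3 of the THO complex fell by 0.60 (SE 0.13; edgeR, adjusted p = 0.0202).

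Among 22 tested envelope genes outside the set, 2 rose and none fell, with a median of -0.06. Tmpo, which encodes the lamina-associated LAP2 proteins, was read at 58.4, 48.5 and 35.1 CPM in control and at 89.4, 107 and 110 CPM in KANSL1-deficient libraries (log2 fold change 1.11 ± 0.19; edgeR, adjusted p = 0.00717). All KANSL1-deficient libraries were above the controls. Syne3, a nesprin of the outer nuclear membrane, rose as well (1.11 ± 0.23; edgeR, adjusted p = 0.0169). In a list of genes of SUMO, a modifier attached to proteins at the pore, 2 of 8 genes rose and none fell. Among them was Sumo2, which encodes a form of the modifier itself (log2 fold change 0.48 ± 0.13; edgeR, adjusted p = 0.0407). With 1 library left out, 0 or 1 Ran cycle genes, 1 to 3 export genes, 1 to 3 envelope genes and 0 or 1 SUMO genes passed.

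**Figure D4:**
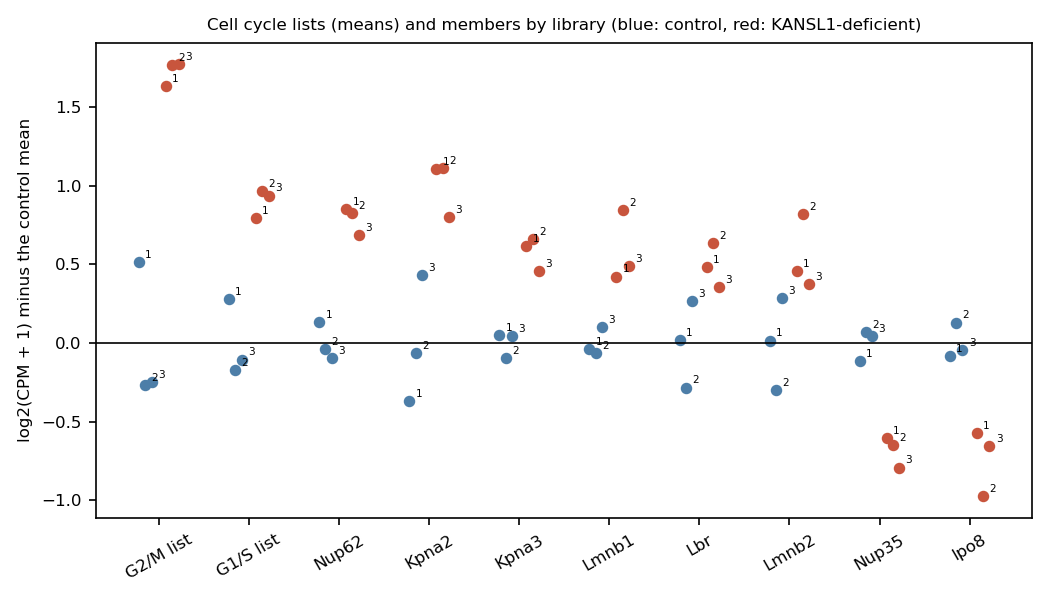
Level in each library relative to the control mean, as log2(CPM + 1) minus the control mean, for the mean of the G2/M and G1/S lists and for 8 members; numbers are replicates. Control replicate 1 is the highest control for both lists (0.52 and 0.28) and for Nup62 (0.13). For Kpna3, control replicates 1 and 3 are nearly level (0.052 and 0.046). Control replicate 1 is the lowest control for Kpna2 (-0.37), Nup35 (-0.12) and Ipo8 (-0.09). KANSL1-deficient replicate 2 is the highest of its group for Lmnb1, Lbr and Lmnb2 (0.84, 0.63 and 0.82).

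Members were set beside the cell cycle lists in each library. Relative to the control mean, the G2/M list was at 1.63, 1.76 and 1.77 on the log2(CPM + 1) scale in KANSL1-deficient replicates 1 to 3. The G1/S list was at 0.80, 0.97 and 0.94. Kpna2 was at 1.11, 1.11 and 0.80, and Nup62 at 0.85, 0.82 and 0.69. The library with the lowest G2/M level of its group, KANSL1-deficient replicate 1, was the highest for Nup62 and lowest for Lmnb1 (0.42). The G2/M levels of that group lay close together, between 1.63 and 1.77. Among the controls, replicate 1 was highest for both lists and Nup62 (0.13). For Kpna3, control replicates 1 and 3 were nearly level (0.052 and 0.046). Control replicate 1 was lowest for Kpna2 (-0.37), Nup35 (-0.12) and Ipo8 (-0.09), and between the others for Lmnb1, Lbr and Lmnb2. These are values of single libraries within groups of 3, with no test.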

How the data were processed

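Messenger RNA of sorted double-positive thymocytes was sequenced from 3 Kansl1fl/fl and 3 Kansl1fl/fl CD4-Cre mice. The submitters' processing notes name STAR, featureCounts, DESeq2 and GRCm39. Their settings, strand included, were not given in the sources used here. Values deposited as counts are raw read counts per gene, per the file headers. The deposited FPKM values are scaled by gene length and library total, by the authors. Of the authors' own comparison, the deposited mean normalized signal, fold ratio, log2 fold change and p-value columns were used only where the authors' deposited table is named.

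Counts were tested with edgeR 4.0.16 in R 4.3.3 (TMM scaling, filterByExpr with a minimum count of 10, robust quasi-likelihood fit of both groups, no covariates), with Benjamini-Hochberg adjustment over all tested genes. limma 3.58.1 and DESeq2 1.42.0 served as alternatives, with other scalings, filters, log2(FPKM + 1) and log2(FPKM + 0.1), removal of a trend with abundance, a replicate block and each library left out, 16 in all. The edgeR script was tested on simulated data. Replicate numbers were not treated as pairs. CPM is TMM-scaled and FPKM is not.

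Members and lists were chosen with earlier results of these data known. Values in every library are given for members past the threshold and, in each role, for the member with the highest mean FPKM and that with the smallest p. Members named in the ratios or after their values were seen are added. Of each further list, up to 4 genes with the smallest p among those past the threshold are named. A few genes of these lists are not reported here by name. Promoter windows come from RefSeq (GRCm38.p6), and gene coordinates from the deposited annotation (GRCm39); the builds were not combined. Total counts were 19361968 to 22459830 per library.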

Additional observations from a re-analysis of the deposited data

How the results depend on the processing

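Among the 6 changed members, Nup62 passed under each of the 16 alternatives, Kpna2 under 13, Nup35 under 10, Ipo8 and Lmnb1 under 7 each and Kpna3 under 6; all 6 kept their direction throughout. The cause of each shift below was not tested. Counts of members by direction below stand without the shares of all tested genes under the same setting. With library totals 2 members rose and 4 fell, the member median was -0.091, and 1 Ran cycle, 4 export, 4 envelope and 0 SUMO genes passed; the log2 fold change of Rae1 was -0.0041. Without a filter 1729 genes passed in all, with 1 Ran cycle and 4 envelope genes, and with a filter of 5 CPM in 3 libraries 4 export and 4 envelope genes. DESeq2 called 2009 genes, 7 members higher, 5 export and 5 envelope genes. On log2(FPKM + 1) 2 members were higher and 1 lower, the median was -0.0789, and 1 Ran cycle, 5 envelope and 0 SUMO genes passed, with Rae1 at -0.00076; on log2(FPKM + 0.1) it was 2 higher, 1 lower, median -0.0839, 1 Ran cycle and 0 SUMO genes, with Rae1 at -0.00073. With the abundance trend removed 1 member was lower, the median was 0.0025, and 1 Ran cycle, 4 envelope and 0 SUMO genes passed, with Nup50 at -0.0102. Same-numbered libraries did not deviate together (r = -0.05, -0.02 and -0.10), and with a replicate block 406 genes passed, 2 members higher and 0 lower, with 1 Ran cycle, 1 export and 0 SUMO genes.

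With each library left out in turn, 283 to 811 genes passed. Leaving out KANSL1-deficient replicate 1, 2 or 3 gave 283, 305 and 525, and leaving out control replicate 2 gave 339. Between 1 and 4 members rose: 2 without control replicate 1 and 1 without control replicate 2 or KANSL1-deficient replicate 1 or 2. Between 0 and 2 fell, and the median lay between -0.0301 and 0.0862. Ran cycle genes numbered 0 to 1, export 1 to 3, envelope 1 to 3, SUMO 0 to 1, G2/M 18 to 32 (18 without control replicate 2) and G1/S 14 to 24. The log2 ratio difference of Lmnb1 over Lmnb2 ranged from -0.0917 to 0.135 and that of Xpo1 over Kpnb1 from -0.14 to 0.0902. Whole-gene counts cannot separate reads in overlapping loci, which 32 of the 58 members have.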
